A study of Mus musculus with 4 samples.

Results

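The histone genes of the count table were the 74 rows whose symbol began with Hist1h to Hist4h, H2af, H3f3 or H1f and that did not carry the suffix for pseudogenes, out of 12067 genes. They comprised 64 Hist genes (5 for H1, 20 for H2A, 14 for H2B, 12 for H3 and 13 for H4) and 10 variant histone genes (*H1f0*, *H1fx*, *H2afj*, *H2afv*, *H2afx*, *H2afy*, *H2afy2*, *H2afz*, *H3f3a* and *H3f3b*). Of the Hist genes, 52 lay on chromosome 13, 9 on chromosome 3, 2 on chromosome 11 and 1 on chromosome 6. *Hist1h2aj* and *Hist1h2al* met the rule, although the GENCODE annotation lists both as pseudogenes.

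The counts came from Quant-seq, which sequences the 3′ ends of mRNA, of KL cells (CD45.2+ Lin- cKIT+ Sca-1- myeloid progenitors) of mouse bone marrow. Whole marrow of BcorΔE9-10 donors (scl-Cre-ERT +; Bcorfl/y) or BcorWT donors (Bcorfl/y, no Cre in the label) had been given to irradiated *Ptprca* recipients, and donor-derived KL cells were sorted after 20 weeks, 2 libraries per genotype. Both genotypes carried the floxed *Bcor* allele, which lies on the X chromosome. Tamoxifen-activated Cre, driven by the stem cell enhancer of *Scl*, removed exons 9 and 10 and shifted the reading frame of *Bcor*, a subunit of a Polycomb complex that ubiquitinates histone H2A. The age of the donors at transplantation is not given in the sources used here, and no source says whether the marrow of several donors was pooled. *Bcor* itself had counts of 104 and 113 in the BcorΔE9-10 libraries and 58 and 79 in the BcorWT libraries. Reads taken at the 3′ end lie outside the deleted exons and do not check the labels.

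Replication-dependent histone genes supply the core and linker histones that package new DNA in S phase. They lie in clusters and lack introns, and each core histone is encoded by many nearly identical copies. Their mRNAs classically end in a conserved stem-loop that is bound by SLBP, in place of a poly-A tail. Variant histone genes are mostly expressed outside S phase as well, from ordinary polyadenylated mRNAs. Quant-seq primes cDNA with oligo-dT, so a classical histone mRNA offers it no tail. How much of each histone mRNA the primer reached was not measured in these libraries.

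The stem-loop was searched for on the sense strand of the GENCODE transcripts of the 74 genes and was found in 41 of 64 Hist genes and in *H2afx*, the variant gene known for both kinds of 3′ end. Among all 55450 annotated genes with a transcript, 0.106% held it. Many of the 23 Hist gene models without it hold only the coding sequence. The 30-base windows below end with the stem-loop, shown in capitals, and are given for the H2A genes with the highest counts, for genes that take a place in the comparison of the genotypes, and for 1 gene of each other form. Coordinates are on GRCm38 (mm10).

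Hist1h2ao, chr13:21810884-21810913, plus strand: agaaaaaaaaaaaaGGCTCTTTTCAGAGCC
Hist1h2ap, chr13:21833029-21833058, minus strand: agaaaaaaaaaaaaGGCTCTTTTCAGAGCC
Hist1h2ab, chr13:23751558-23751587, plus strand: ttaaccaaaacaaaGGCTCTTTTCAGAGCC
Hist1h2ad, chr13:23574881-23574910, plus strand: tgtataaaaacaaaGGCTCTTTTCAGAGCC
Hist1h2ae, chr13:23570668-23570697, minus strand: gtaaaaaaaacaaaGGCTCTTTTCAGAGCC
Hist1h2ag, chr13:22042483-22042512, minus strand: tgatcgccaacaaaGGCTCTTTTCAGAGCC
Hist1h3c, chr13:23745047-23745076, minus strand: gctatttaaaaaaaGGCTCTTTTAAGAGCC
Hist1h4n, chr13:21831798-21831827, minus strand: ctttctcaactaaaGGCCCTTTTCAGGGCC
Hist1h4b, chr13:23757352-23757381, plus strand: taactgttacaaaaGGTCCTTTTCAGGACC
Hist1h4i, chr13:22040966-22040995, minus strand: caatgctacttaaaGGCCCTTTTTAGGGCC
Hist2h2ac, chr3:96220418-96220447, minus strand: cacgaatccaaaaaGGCTCTTTTTAGAGCC
H2afx, chr9:44335226-44335255, plus strand: cacacctccacaaaGGCCCTTTTAAGGGCC

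The stem differed by class. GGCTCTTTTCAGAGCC stood in 24 genes, namely 3 for H1, 10 for H2A, 6 for H2B and 5 for H3, and in no H4 gene. The 11 H4 genes with a stem-loop had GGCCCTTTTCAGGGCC in 7, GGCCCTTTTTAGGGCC in 2 and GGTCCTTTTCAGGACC in 2. *Hist1h2ao* and *Hist1h2ap* are near-copies on opposite strands, with 93.5% of the 50-base stretches of *Hist1h2ao* present in *Hist1h2ap*, and both carry a run of 12 adenines directly before the stem-loop.

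*Hist1h2ao* and *Hist1h2ap* had the highest levels of all Hist genes. CPM denotes counts scaled by library total and TMM factor; since Quant-seq samples transcript ends, it was not divided by length. *Hist1h2ao* had counts of 6939 and 15307 in the BcorΔE9-10 libraries and 2629 and 10823 in the BcorWT libraries. It was at 1282 and 2495 CPM in the BcorΔE9-10 libraries and at 768 and 2037 CPM in the BcorWT libraries. *Hist1h2ap* had counts of 6643 and 10698 against 2986 and 9439. It was at 1228 and 1744 CPM against 872 and 1776 CPM. For both genes the libraries of the genotypes overlapped, and replicate 1 was below replicate 2 in each genotype. Together they made up 48.5% and 44.6% of the summed CPM of all Hist genes in the BcorΔE9-10 libraries, and 30.2% and 43.3% in the BcorWT libraries.

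Among the 41 Hist genes with a stem-loop, 3 had a run of 8 or more adenines within the 20 bases before it. *Hist1h2ao* and *Hist1h2ap* had the 2 highest mean levels, 1646 and 1405 CPM. *Hist1h2ae*, whose run of 8 adenines is parted from the stem-loop by a cytosine and 3 more adenines, had a mean of only 24.3 CPM. The 38 genes with shorter runs had a median of 29.3 CPM, with a range of 3.43 to 649 CPM. In the 23 genes whose models lack a stem-loop the median was 19.5 CPM and the highest 365 CPM. These genes share the same libraries, and part of them share sequence, so the plot of adenine run against level is a description of 41 points. The polyadenylation signal AATAAA was present in the last 100 bases of a transcript in 15 of 64 Hist genes and in 9 of 10 variants.

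**Figure D1:**
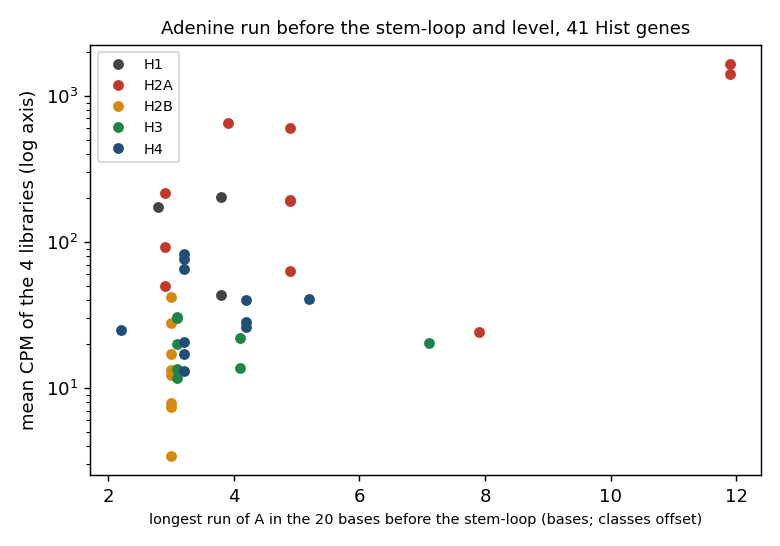
Mean CPM of the 4 libraries (log axis) against the longest run of adenines in the 20 bases before the stem-loop, for the 41 Hist genes whose annotated transcript holds it; each point is a gene, coloured by class and offset sideways by class. The 2 points at a run of 12 are *Hist1h2ao* and *Hist1h2ap*, the highest, and the point at 8 is *Hist1h2ae*, at 24.3 CPM.

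The promoters showed further differences between the classes. RefSeq promoters of GRCm38.p6, from 250 bases before to 50 bases after the gene start, were matched to 57 of 64 Hist genes and 9 of 10 variants, and searched on both strands. The letters CCAAT were present in every matched promoter of H1 (5), H2A (18), H2B (12) and H3 (10) genes but in only 3 of 12 H4 promoters, against 41.1% of all 27025 promoters. TATAAA was found in 59.6% of Hist promoters, against 15.7% of all. ATTTGCAT, the octamer bound by POU factors, was found in 7 of 18 H2A and 4 of 12 H2B promoters and in none of H1, H3 or H4, against 1.97% of all promoters. None of these motifs contains another, and a match describes the letters only.

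The comparison of genotypes asked whether histone genes differed between BcorΔE9-10 and BcorWT KL cells. None of the 64 Hist genes and none of the 10 variants passed an adjusted p of 0.05 by edgeR's quasi-likelihood test, with the lowest adjusted p among them at 0.945. Over all genes 0.0166% passed, 2 of 12067. DESeq2 and limma-voom also called no histone gene, while they called 0.356% and 0.0331% of all genes. With 2 libraries per genotype, p-values set the difference between genotypes against the spread within them, which is estimated partly from all genes. Fewer cells of a type cannot be told apart from less RNA per cell.

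At an unadjusted p under 0.05, 2 Hist genes were higher in BcorΔE9-10 (3.12% of 64, against 1.34% of all genes) and 2 were lower (again 3.12%, against 3.07%). The CPM of the genotypes did not overlap in 5 Hist genes that were higher (7.81%, against 16.8% of all genes) and in 13 that were lower (20.3%, against 17.1%). The 5 were *Hist1h1a*, *Hist1h2ag*, *Hist1h2ah*, *Hist1h2bf* and *Hist1h3f*. The 13 were *Hist1h2aa*, *Hist1h2al*, *Hist2h2ab*, *Hist2h2ac*, *Hist1h2bk*, *Hist3h2ba*, *Hist2h3c1*, *Hist2h3c2*, *Hist1h4d*, *Hist1h4h*, *Hist1h4k*, *Hist1h4n* and *Hist2h4*. The log2 fold change (BcorΔE9-10 against BcorWT) was below 0 in 45 of 64 Hist genes (70.3%), against 52.3% of all genes. Its median was -0.31, against -0.03 over all genes.

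The shift differed between the classes. All 13 H4 genes had a log2 fold change below 0, with a median of -0.53 and a range of -0.92 to -0.01. The medians were -0.45 for H3 (10 of 12 genes below 0), -0.39 for H2B (10 of 14), -0.03 for H2A (10 of 20) and 0.03 for H1 (2 of 5). The differences between classes were not tested. The class medians depended on single libraries. In BcorWT replicate 2, 42 of the 64 Hist genes had their highest CPM, as did 4158 of all 12067 genes. Without that library 6 of 13 H4 genes and 3 of 14 H2B genes were below 0, with medians of 0.11 and 0.31, and the median of the 64 Hist genes was 0.13. The other medians were then -0.28 for H1, 0.25 for H2A and -0.15 for H3. Without BcorΔE9-10 replicate 1, H3 was at -0.013 (6 of 12 genes below 0), H2A at 0.27, H1 at 0.33 and H4 at -0.30 (12 of 13). Without BcorΔE9-10 replicate 2 the medians were -0.34 for H1, -0.37 for H2A, -1.01 for H3 and -0.82 for H4, and without BcorWT replicate 1 they were 0.48 for H1, -0.26 for H2A, -0.91 for H2B, -0.73 for H3 and -0.92 for H4. Under scaling by library totals, limma-voom or a replicate block, 12 of 13 H4 genes were below 0. The H2A median was -0.25 under limma-voom and -0.24 with the replicate block, with 12 of 20 genes below 0 in both, and -0.18 with at least 10 counts in every library.

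**Figure D2:**
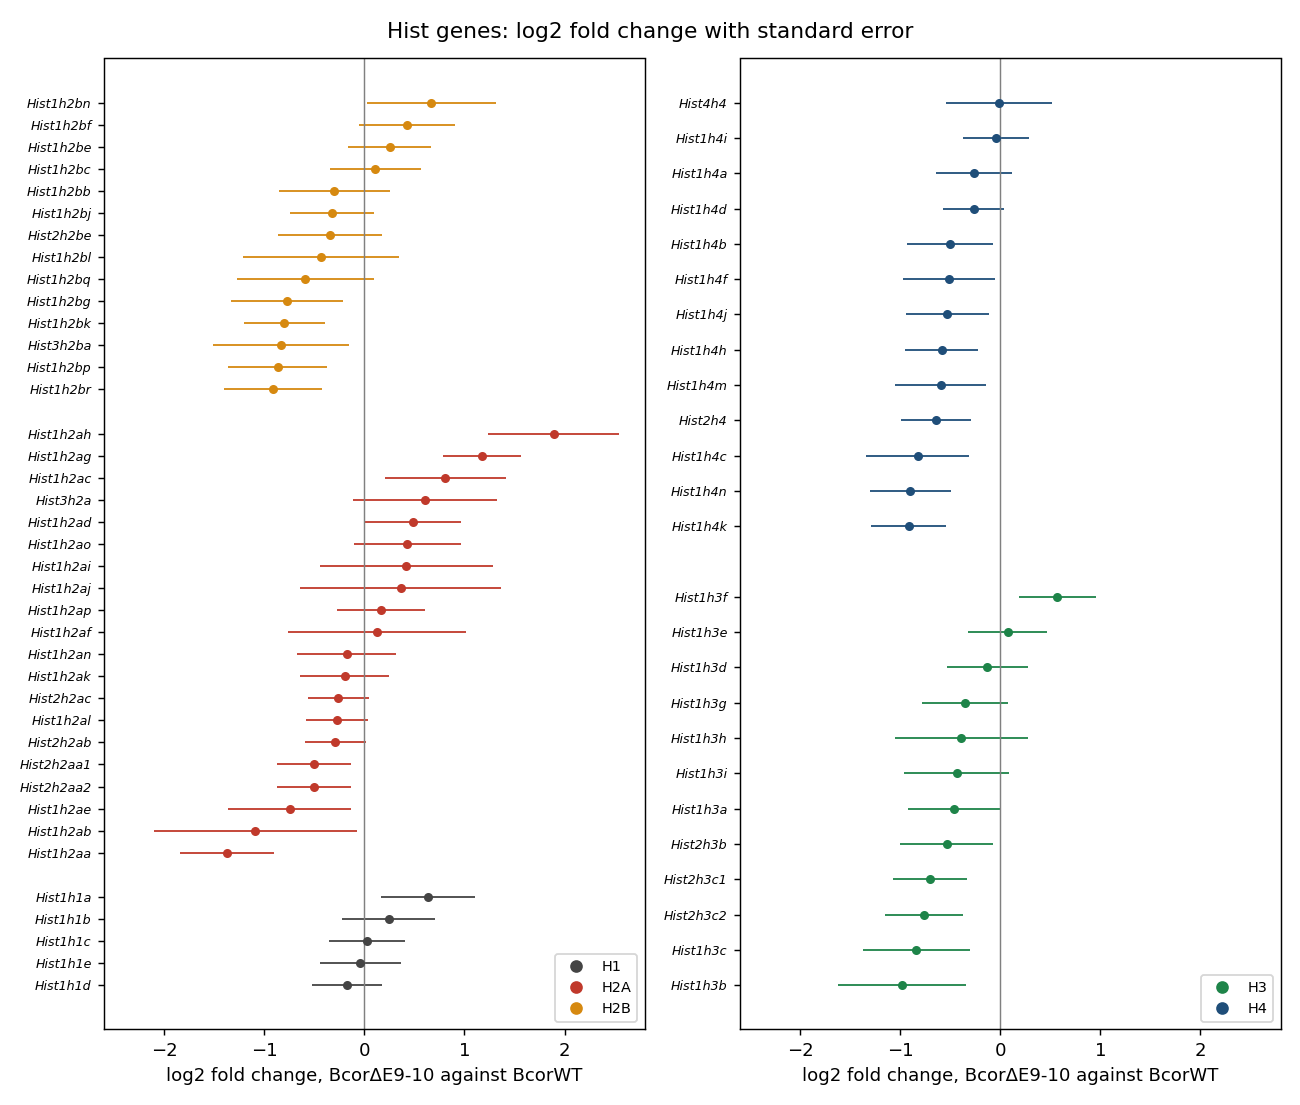
Log2 fold change, BcorΔE9-10 against BcorWT (x axis), for each of the 64 Hist genes; points are edgeR estimates from 2 libraries per genotype, bars are ± 1 standard error, and colours mark the class. All 13 H4 genes lie below 0, while the 20 H2A genes range from -1.37 to 1.89.

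The summed CPM of each class showed the spread between replicates. All 64 Hist genes summed to 5174 and 9506 CPM in the BcorΔE9-10 libraries and to 5423 and 8799 CPM in the BcorWT libraries. H2A supplied 75.6% to 84.7% of these sums. H4 genes summed to 351 and 440 CPM against 411 and 707 CPM, and H3 genes to 137 and 231 CPM against 194 and 314 CPM. H2B genes summed to 159 and 208 CPM against 158 and 347 CPM, and H1 genes to 366 and 573 CPM against 562 and 370 CPM. The genotypes overlapped in each of the 5 classes.

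**Figure D3:**
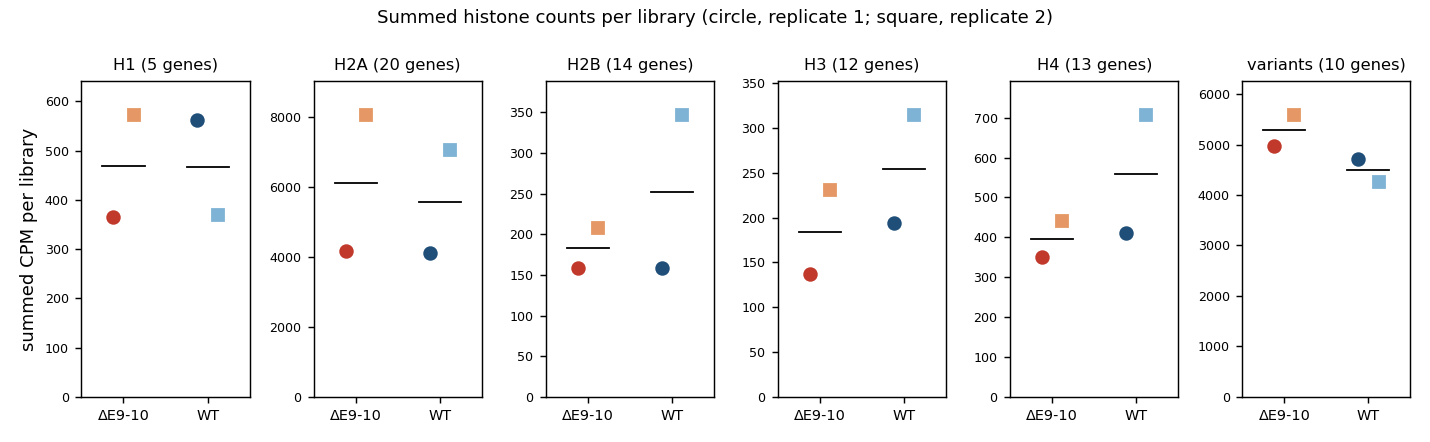
Summed CPM per library for the 5 classes of Hist genes and for the variants; each point is a library (red and orange, BcorΔE9-10; blues, BcorWT), lines are means of 2 libraries, and every axis starts at 0 with its own scale. The libraries of the genotypes overlap in all 5 Hist classes, and only for the variants are both BcorΔE9-10 libraries above both BcorWT libraries.

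Among the H2A genes, *Hist1h2ah* had the highest log2 fold change of the Hist genes. It lies at chr13:22035164-22035568 on the minus strand, and had counts of 424 and 132 in the BcorΔE9-10 libraries and 65 and 44 in the BcorWT libraries. Its log2 fold change was 1.89 ± 0.65 (SE), with a p of 0.020 by edgeR and an adjusted p of 0.945. The groups did not overlap, although the BcorΔE9-10 replicates were themselves 3.64-fold apart in CPM. Without BcorΔE9-10 replicate 1 the log2 fold change was 0.67, and over the fits that left out 1 library it ranged up to 2.58. *Hist1h2ag*, at chr13:22042460-22042944 on the minus strand, had counts of 672 and 818 against 259 and 206. Here the replicates lay closer together, and the log2 fold change was 1.17 ± 0.39, with an edgeR p of 0.017 and an adjusted p of 0.945. It was 0.77 without BcorWT replicate 2. Much of the sequence of both genes is shared with other H2A genes, 87.4% of the 50-base stretches of *Hist1h2ah* with *Hist1h2ad* and 71.8% of those of *Hist1h2ag* with *Hist1h2ao*.

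*Hist1h2aa*, known as a testis-enriched H2A gene, had the lowest log2 fold change of the Hist genes. It lies at chr13:23934462-23934851 on the plus strand. Its counts were 33 and 34 in the BcorΔE9-10 libraries and 37 and 102 in the BcorWT libraries, which placed the BcorWT libraries above in CPM (10.8 and 19.2, against 6.10 and 5.54). The log2 fold change was -1.37 ± 0.47, with an edgeR p of 0.020 and an adjusted p of 0.945, and it was -0.89 without BcorWT replicate 2. Of its 50-base stretches 23.8% are shared with another gene, nearly all of them with *Gm44344*, which overlaps it on the opposite strand. *Hist1h4k*, an H4 gene at chr13:21750194-21750505 on the minus strand, had counts of 59 and 99 against 80 and 147. Its log2 fold change was -0.92 ± 0.38, with an edgeR p of 0.042 and an adjusted p of 0.945. *Hist1h4n*, another H4 gene, had counts of 243 and 377 against 229 and 698 and a log2 fold change of -0.90 ± 0.41, with an edgeR p of 0.058. Without BcorWT replicate 2 it was -0.33.

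Several H2A genes varied more between replicates than between genotypes. *Hist1h2ab* had counts of 357 and 4689 in the BcorΔE9-10 libraries and 1138 and 7626 in the BcorWT libraries, and its log2 fold change was -1.09 ± 1.02. *Hist1h2ai* had counts of 365 and 4713 against 1155 and 1530, and a log2 fold change of 0.42 ± 0.86. *Hist1h2ad*, which had counts of 3396 and 4722 against 2504 and 1437, lacked the low value in BcorΔE9-10 replicate 1. In BcorΔE9-10 replicate 2 the highest of the 3 counts was 0.704% above the lowest, and *Hist1h2ab* and *Hist1h2ai* were also close in both replicates 1, but in BcorWT replicate 2 they were 4.98-fold apart. *Hist1h2ai* shares 84.0% of its 50-base stretches with *Hist1h2ad*, and *Hist1h2ab* shares 58.0% with *Hist1h2ai*.

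*Hist1h2af* (120 and 1805 counts against 475 and 804) and *Hist3h2a* (388 and 2754 against 714 and 711) likewise had a low BcorΔE9-10 replicate 1 and a high BcorΔE9-10 replicate 2. The replicates of a genotype were more than 4-fold apart in 6 of 64 Hist genes (9.38%, against 7.69% of all genes), namely *Hist1h2ab*, *Hist1h2af*, *Hist1h2ai*, *Hist1h2aj*, *Hist1h2bq* and *Hist3h2a*. *Hist1h2aj* had only 4, 22, 2 and 14 counts, where 3 counts were worth 0.489 to 0.876 CPM. Of the 64 Hist genes, 32 had their lowest CPM in BcorΔE9-10 replicate 1, as did 2524 of all 12067 genes.

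**Figure D4:**
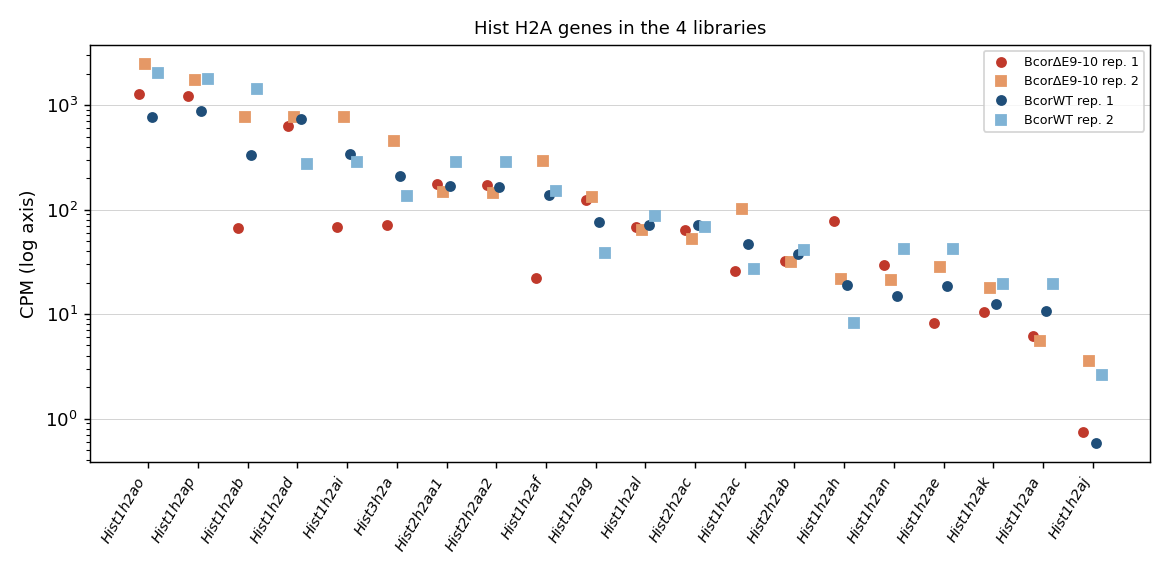
CPM (log axis) of the 20 Hist H2A genes in each of the 4 libraries, ordered by mean CPM; circles are replicate 1 and squares replicate 2, in red and orange for BcorΔE9-10 and in blues for BcorWT. *Hist1h2ab*, *Hist1h2ai* and *Hist1h2af* spread over more than a factor of 10 with both genotypes interleaved, whereas both BcorΔE9-10 points of *Hist1h2ag* and *Hist1h2ah* lie above both BcorWT points.

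*Hist2h2aa1* and *Hist2h2aa2*, copies of each other on opposite strands of chromosome 3, had counts of 950 and 939 in BcorΔE9-10 replicate 1, 899 and 878 in BcorΔE9-10 replicate 2, 573 and 561 in BcorWT replicate 1 and 1532 and 1518 in BcorWT replicate 2. The log2 fold change was -0.50 ± 0.37 for the former and -0.51 ± 0.37 for the latter, with overlapping groups. *Hist1h2ac* (140 and 623 counts against 159 and 142), *Hist1h2ae*, *Hist1h2ak* and *Hist1h2an* also overlapped, with log2 fold changes of 0.81, -0.75, -0.20 and -0.18.

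Among the linker histone genes, *Hist1h1c* was the highest, with counts of 787 and 1611 in BcorΔE9-10 and 755 and 958 in BcorWT libraries and a log2 fold change of 0.03 ± 0.38. *Hist1h1e* (750 and 1243 against 787 and 649), *Hist1h1b* and *Hist1h1d* also overlapped, with log2 fold changes of -0.04, 0.24 and -0.17. *Hist1h1a*, the lowest of the 5, had counts of 64 and 49 against 21 and 35, and a log2 fold change of 0.63 ± 0.47. Its libraries did not overlap, but the edgeR p was 0.216.

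The H2B genes were present at low levels, with mean CPM between 3.43 and 41.7. *Hist1h2bk* was the highest of them, with counts of 149 and 205 against 120 and 376. Its log2 fold change was -0.80 ± 0.40, with an edgeR p of 0.083. The values of *Hist1h2bp* (119 and 109 against 63 and 285) and *Hist1h2br* (52 and 141 against 77 and 207) overlapped, with log2 fold changes of -0.87 and -0.92. The 4 H2B genes above 0 were *Hist1h2bc*, *Hist1h2be*, *Hist1h2bf* and *Hist1h2bn*, at 0.11 to 0.67, and the remaining 7, *Hist1h2bb*, *Hist1h2bg*, *Hist1h2bj*, *Hist1h2bl*, *Hist1h2bq*, *Hist2h2be* and *Hist3h2ba*, were between -0.84 and -0.30.

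H3 genes were also low, between 11.6 and 30.7 CPM. *Hist2h3c1* had counts of 109 and 164 in BcorΔE9-10 and 99 and 250 in BcorWT libraries, and its copy *Hist2h3c2* had 104 and 157 against 94 and 257. Both were lower in CPM in each BcorΔE9-10 library, with log2 fold changes of -0.70 ± 0.37 and -0.76 ± 0.39. *Hist1h3f* (94 and 95 against 37 and 60) went the other way, at 0.57 ± 0.38 with an edgeR p of 0.175, and *Hist1h3e* was at 0.07. *Hist1h3a*, *Hist1h3b*, *Hist1h3c*, *Hist1h3d*, *Hist1h3g*, *Hist1h3h*, *Hist1h3i* and *Hist2h3b* overlapped, with log2 fold changes between -0.99 and -0.13.

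Of the H4 genes, *Hist1h4i* had the highest level, with counts of 373 and 571 against 255 and 491 and a log2 fold change of -0.04 ± 0.33. *Hist1h4m*, which shares sequence with *Hist1h4n*, had counts of 237 and 370 against 155 and 595, and its libraries overlapped. *Hist2h4* (91 and 137 against 89 and 187), *Hist1h4h* (172 and 199 against 119 and 326) and *Hist1h4d* (205 and 223 against 160 and 226) did not overlap in CPM, with log2 fold changes of -0.65, -0.59 and -0.26. *Hist1h4a*, *Hist1h4b*, *Hist1h4c*, *Hist1h4f*, *Hist1h4j* and *Hist4h4* overlapped, between -0.83 and -0.01.

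Assignment of reads among these genes is uncertain. More than 50% of the 50-base stretches were shared with another annotated gene, overlapping genes included, in 35 of 64 Hist genes, whereas the 10 variants shared 0 to 35.4%. Among the 29 Hist genes with less shared sequence, 21 had a log2 fold change below 0 and the median was -0.26. All 9 such H4 genes were below 0, with a median of -0.51, again with BcorWT replicate 2 included.

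Some genes that overlap a histone gene carried nearly the same counts. *Gm20632*, antisense to *Hist2h2aa2*, had 981, 960, 602 and 1626 counts, and *Gm20633*, antisense to *Hist2h2aa1*, had 1005, 968, 609 and 1632 (BcorΔE9-10 replicates 1 and 2, then BcorWT replicates 1 and 2, as in each list of 4 below). *Gm15444*, antisense to *Hist2h2ab*, had 170, 191, 124 and 207 counts beside 176, 194, 128 and 218 for *Hist2h2ab*. *Trim17*, which overlaps *Hist3h2a* on the same strand, had 208, 2588, 633 and 569, close to *Hist3h2a* in BcorΔE9-10 replicate 2 but further from it in BcorΔE9-10 replicate 1. Others differed, such as *Gm20628*, antisense to *Hist2h3b*, with 196, 275, 113 and 271 counts beside 47, 98, 46 and 118. The use of strand in counting is not given in the sources used here, and reads from where such pairs overlap cannot be told apart. *Hist1h1e* and *Hist1h2be* also overlap each other, with different counts.

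Variant histone genes as a group were close to 0. Their median log2 fold change was -0.00, and 5 of 10 were below 0. The summed CPM of the 10 genes was 4980 and 5589 in the BcorΔE9-10 libraries and 4719 and 4255 in the BcorWT libraries, which did not overlap, with a log2 ratio of means of 0.24 and a range of 0.15 to 0.32 when 1 library was left out. Most of each sum came from *H2afz* and *H3f3b*, and *H3f3b* by itself overlapped, so the sum does not describe the 10 genes alike. At an unadjusted p under 0.05, 1 of 10 variants was lower (3.07% of all genes were) and 0 were higher (1.34% of all genes). The genotypes did not overlap in 2 variants that were higher, *H2afz* and *H3f3a* (16.8% of all genes), and in 1 that was lower, *H1fx* (17.1%).

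*H2afz*, which encodes H2A.Z, the variant placed around promoters, was the highest variant. Its counts were 10292 and 12370 in the BcorΔE9-10 libraries and 5222 and 8868 in the BcorWT libraries. In CPM these were 1902 and 2016 against 1525 and 1669, and the log2 fold change was 0.30 ± 0.33 with an edgeR p of 0.404. *Gm8203*, which copies part of *H2afz*, had only 18, 5, 51 and 12 counts. *Tmcc1* holds 30.9% of the 50-base stretches of *H2afz* and had 101, 210, 74 and 123 counts, and *Gm26623* holds 11.1% and had 781, 642, 395 and 628.

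*H3f3b* and *H3f3a* both encode H3.3, the replacement H3 that is deposited outside S phase. *H3f3b* had counts of 9034 and 12358 against 6255 and 6533, with overlapping CPM and a log2 fold change of 0.27 ± 0.37, which was 0.012 without BcorWT replicate 2 and 0.58 without BcorWT replicate 1. *Gm6485*, which copies part of it, had 13, 11, 7 and 28 counts. *H3f3a* had counts of 1600 and 2259 against 910 and 780. This gave 296 and 368 CPM against 266 and 147 CPM, and its log2 fold change of 0.69 ± 0.38 was the highest among the variants, with an edgeR p of 0.113. It was 0.32 without BcorWT replicate 2 and 1.17 without BcorWT replicate 1. *Gm17275*, on the opposite strand of *H3f3a*, had 1520, 2179, 860 and 564 counts. It holds 16.3% of the 50-base stretches of *H3f3a*, and reads from these cannot be told apart.

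*H1fx*, a linker histone variant, had the lowest log2 fold change of all 74 genes. It lies at chr6:87980421-87981637 on the minus strand. Its counts were 44 and 36 in the BcorΔE9-10 libraries and 42 and 189 in the BcorWT libraries, or 8.13 and 5.87 CPM against 12.3 and 35.6 CPM. The groups did not overlap, but BcorWT replicate 2 stood far above the rest. The log2 fold change was -1.78 ± 0.56, with an edgeR p of 0.013 and an adjusted p of 0.945. Without BcorWT replicate 2 it was -0.81.

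The remaining variants did not separate the genotypes. *H2afx*, the variant phosphorylated at DNA breaks, had counts of 1126 and 2254 against 1093 and 1986 and a log2 fold change of -0.27 ± 0.38. Its BcorΔE9-10 replicate 1 was the lowest library. *H2afy*, which encodes macroH2A1, had 2219 and 2154 against 1237 and 1357, at 0.30 ± 0.34, and was at 0.075 without BcorWT replicate 2 and 0.57 without BcorWT replicate 1. *H2afv* (2086 and 2336 against 1100 and 2374), *H2afj* (437 and 379 against 243 and 388) and *H1f0* (99 and 126 against 53 and 123) had log2 fold changes between -0.02 and 0.00, each with an SE of 0.32 to 0.37. *H2afy2* had 8, 13, 3 and 14 counts, at or above the level of 3 counts.

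**Figure D5:**
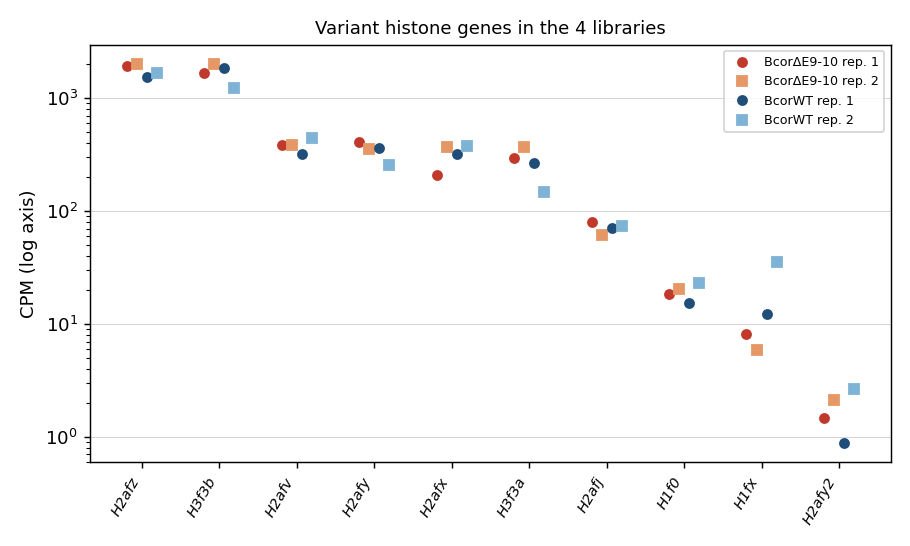
CPM (log axis) of the 10 variant histone genes in each library, ordered by mean CPM; circles are replicate 1 and squares replicate 2, in red and orange for BcorΔE9-10 and in blues for BcorWT. *H2afz* and *H3f3b* are the 2 highest variants in every library, and the single high *H1fx* point is BcorWT replicate 2.

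Genes that make, carry and place histones were compared in the same fit. None of the 14 genes for histone mRNA transcription and 3′ processing in the table passed an unadjusted p of 0.05. Their log2 fold changes were above 0 in 8 and below 0 in 6. The genotypes did not overlap in 6 that were higher (against 16.8% of all genes) and in 4 that were lower (against 17.1%). The lowest log2 fold change was that of *Lsm11*, a subunit of the U7 snRNP, at -0.86 ± 0.42. *Slbp*, whose protein binds the stem-loop, had 562 and 649 counts in the BcorΔE9-10 libraries but 82 and 399 in the BcorWT libraries. Its libraries did not overlap, and the log2 fold change was 1.07 ± 0.50 with an edgeR p of 0.067. BcorWT replicate 1 was far the lowest, at 23.9 CPM against 75.1 CPM in BcorWT replicate 2. *Npat*, the coactivator of replication-dependent histone genes, had 71 and 84 against 43 and 43 counts, and a log2 fold change of 0.39 ± 0.43.

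Of 21 genes for histone chaperones and assembly, 0 were higher and 1 was lower at an unadjusted p under 0.05, against 1.34% and 3.07% of all genes. The 1 gene was *Hira*, part of the H3.3 chaperone complex, with 149 and 210 counts against 93 and 996. Its log2 fold change was -1.80 ± 0.75 with an edgeR p of 0.043, and the groups overlapped, with BcorWT replicate 2 alone being high. *Chaf1a*, a subunit of the assembly factor CAF-1, was at 0.01 ± 0.31. Of 16 genes for deposition and eviction of variants, 0 were higher and 1 was lower, *Vps72*, a subunit of the complexes that deposit H2A.Z, with 294 and 254 against 223 and 751 counts and a log2 fold change of -1.11 ± 0.43 (edgeR p of 0.032), BcorWT replicate 2 again being far the highest. *Anp32e*, which removes H2A.Z, and *Cenpa*, the centromeric H3, were at -0.20 ± 0.31 and -0.27 ± 0.36. All p-values of these lists were above 0.05 after adjustment over all genes.

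Other features of the libraries moved with some of these values. Totals were 3825289.5 to 6253100.5 counts, and *Gm42418* alone took 14.3% to 27.9% of 3 libraries but 1.43% of BcorWT replicate 2. The myeloid progenitor markers (10 of 10 in the table) summed to 8508 to 11246 CPM in the BcorΔE9-10 libraries and to 11357 to 11610 CPM in the BcorWT libraries, which did not overlap. *Mpo*, the largest part of each sum, did overlap, at 6888 and 4284 CPM in BcorΔE9-10 and 6692 and 5331 CPM in BcorWT libraries. Of the 10 genes, 6 had a log2 fold change below 0 (52.3% of all genes did) and 4 were above 0. The mature neutrophil markers (8 of 8) summed to 63031 and 154262 CPM in the BcorΔE9-10 libraries and 93874 and 141464 CPM in the BcorWT libraries. They took 6.74% to 15.1% of all counts, although the cells were sorted as lineage-negative. Like the Hist sum, they were lower in replicate 1 of each genotype, and a link between the sums was not tested. The S phase markers (20 of 20) stayed between 2304 and 2675 CPM, with none at an unadjusted p under 0.05, and were highest in BcorΔE9-10 replicate 1, where the Hist sum was lowest. The mitosis markers (15 of 15) ranged from 2305 to 2709 CPM in BcorΔE9-10 and from 2038 to 2941 CPM in BcorWT libraries.

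Summed markers of 3 other lineages did not overlap between the genotypes. The erythroid markers (9 of 12 in the table) summed to 180 to 201 CPM in BcorΔE9-10 and 79.4 to 92.0 CPM in BcorWT libraries. The eosinophil, basophil and mast cell markers (7 of 7) summed to 228 to 270 against 558 to 681 CPM, and the monocyte and dendritic markers (7 of 8) to 731 to 741 against 899 to 1762 CPM. The genotypes overlapped in the next 2 lists. The megakaryocyte markers (4 of 7) summed to 108 to 141 against 110 to 266 CPM, and the T and NK cell markers (3 of 9, without *Cd3e*, *Cd3g* and *Cd3d*) to 131 to 151 against 136 to 262 CPM. Nearly all of the latter sums was *Nkg7*, at 147 and 128 against 128 and 251 CPM. *Lck* (2.77 and 2.28 against 5.26 and 6.96 CPM) and *Klrb1c* (1.48 and 0.489 against 2.63 and 3.95 CPM) were lower without overlap, as were 17.1% of all genes. The part of cell composition in the histone values was not tested.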

How the data were processed

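Donor-derived KL cells were profiled by Quant-seq with 75-base reads in 4 libraries, 2 per genotype. According to the labels and methods, the authors used cutadapt to trim 5′ ends and sequence derived from poly-A tails, HISAT2 for alignment to mm10 and featureCounts of Subread for gene-level counting, and the deposited table holds these counts without normalization. The deposited columns for BcorΔE9-10 replicate 2 and BcorWT replicate 1 were taken to hold estimated counts, since 1 gene is not whole there, and were rounded. The treatment of reads that match several genes, and of strand, is not given in the sources used here.

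Counts of all 12067 genes were tested with edgeR 4.0.16 in R 4.3.3 (filterByExpr, which removed 0 genes, TMM scaling, quasi-likelihood F test, prior count of 0.125, Benjamini-Hochberg adjustment over all genes). The SE was the size of the log2 fold change over the square root of F. Totals of 3825289.5 to 6253100.5 counts made 3 counts worth 0.489 to 0.876 CPM. Values given after ± are SE. Alternatives used DESeq2 1.42.0, limma 3.58.1, other scalings and filters, a replicate block, and each library left out. The fits were tested on simulated data. Transcripts and positions came from GENCODE M21 (GRCm38) and promoters from RefSeq (GRCm38.p6); 50-base stretches were matched across all transcripts on both strands. Python 3.11.15 with pandas 2.3.3 and matplotlib 3.10.9 was used for summaries and figures.

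The histone genes and the other lists were chosen with earlier results of these data known. Members were given with their counts where the groups did not overlap and the unadjusted p was under 0.05, where they were among the 3 highest by mean CPM, or where they had the highest or lowest log2 fold change among the Hist genes or the variants. From the lists of genes that make, carry and place histones, those with an unadjusted p under 0.05 and *Slbp*, *Npat*, *Anp32e*, *Hira*, *Chaf1a* and *Cenpa* were named. *Lsm11* was also named, for the lowest log2 fold change of its list. Other members were described by class, and the counts printed for them were chosen after their values were seen. 1 list of lineage markers is not reported here.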

Additional observations from a re-analysis of the deposited data

How the results depend on the processing

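No histone gene passed an adjusted p of 0.05 under DESeq2's size factors, library totals, scaling without *Gm42418*, a minimum of 10 counts per library, no filter, a replicate block, limma-voom, DESeq2 or a prior count of 2. Over all genes 0.0166% to 0.356% passed in these fits. The number of Hist genes that were lower at an unadjusted p under 0.05 was 2 with edgeR, 1 under library totals and 3 with the minimum of 10 counts. Of all genes 3.07%, 2.33% and 3.4% were lower at that p in these fits. The log2 fold change of *H2afv* turned to 0.042 under library totals, 0.015 under limma-voom and 0.016 with the replicate block. *Hist1h1c* turned to -0.027 and *Hist1h2ai* to -0.45 under limma-voom. With the replicate block *Hist1h1c* was at -0.027 and *Hist1h2ai* at -0.44, and 3 Hist genes were lower at an unadjusted p under 0.05, as were 2.63% of all genes. Over all genes same-numbered libraries did not deviate together (correlation of -0.0945), so the numbers were not taken to pair the samples, although the median log2 difference of replicate 1 from replicate 2 over the Hist genes was -0.46 in BcorΔE9-10 and -0.74 in BcorWT libraries. Only Hist genes with at most 50% shared sequence gave a median of -0.26 and 0 calls, an alternative chosen after seeing the data.

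Leaving out 1 library assumes that the lone library of a genotype varies like the others. The adjusted calls then ranged from 0 to 5 Hist genes and from 0 to 1 variant. Such calls rest on a lone library in 1 genotype and cannot decide whether a gene differs. The most histone genes were called without BcorWT replicate 1. Of these fits, that one also called the largest share of all genes. It had the largest share of all genes at an unadjusted p under 0.05 as well, so its histone calls are not particular to histone genes. Without BcorWT replicate 1 the log2 fold change was 1.73 for *Hist1h2ag*, -1.31 for *Hist1h4n* and -2.35 for *H1fx*. With all 4 libraries these were 1.17, -0.90 and -1.78. Without BcorΔE9-10 replicate 2 the log2 fold change of *Hist1h2ab* was -3.74, against -1.09 with all 4 libraries. At an unadjusted p under 0.05, 1 to 4 Hist genes were higher and 0 to 22 were lower, with 22 without BcorWT replicate 1, where 13.1% of all genes were lower at that p, and 0 without BcorWT replicate 2 or BcorΔE9-10 replicate 1; of the variants, 0 to 1 were higher and 0 to 1 lower. The median of the Hist genes ranged from -0.61 to 0.13 and that of the variants from -0.13 to 0.16. Over these fits the log2 fold change ranged from -0.23 to 0.25 for *H2afv*, -0.46 to 0.39 for *Hist1h1c*, -3.74 to 0.32 for *Hist1h2ab*, -0.066 to 1.37 for *Hist1h2ad*, -2.21 to 1.30 for *Hist1h2ai*, -0.13 to 1.30 for *Hist1h2ao* and -0.26 to 0.77 for *Hist1h2ap*. The cause was not tested. Depth limits *Hist1h2aj* and *H2afy2*, which were near 3 counts in a library.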
